A study of Saccharomyces cerevisiae with 6 samples.

Results

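The ergosterol and mevalonate genes of budding yeast (Saccharomyces cerevisiae) are described here across 6 microarrays. The 32 genes were taken by name from the platform annotation: every ERG gene with a number, and HMG1, HMG2, MVD1, IDI1, NCP1, CYB5, ARE1, ARE2, UPC2, ECM22, SUT1 and HES1. Each has 1 probe set, and together they are 32 of the 5449 S. cerevisiae genes measured. All 32 read above the background level on all 6 arrays and all 32 were tested, while ARE2, HES1, SUT1 and UPC2 lie among the lowest 25% of probe sets by mean. The background level is the 95th percentile of named probe sets that match no S. cerevisiae gene.

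Ergosterol is the main sterol of fungal membranes and takes the place that cholesterol has in animals. It is built from acetyl-CoA through mevalonate, farnesyl pyrophosphate, squalene and lanosterol, and several late steps need oxygen, heme or iron. Upc2 and Ecm22 are related zinc-cluster activators that turn on sterol genes when sterols run low, and surplus sterol is stored as esters made by Are1 and Are2. Farnesyl pyrophosphate also leaves the route for dolichol, ubiquinone, heme A and prenylated proteins.

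The cultures were MAT a cells of S288C background in YNB medium, held at 30 °C and pH 5 in aerobic chemostats, where the glucose supply set growth to 0.10 per hour. The wild type grew with 10 mM aminotriazole (3AT), an inhibitor of the histidine enzyme His3, and the gcn4Δ strain with 0.1 mM 3AT, with 3 arrays each. GCN4 encodes the activator of amino acid biosynthesis genes, and no aminotriazole-free culture is among the samples used. Strain and inhibitor concentration differ together and cannot be told apart, so "change" below always means gcn4Δ at 0.1 mM minus wild type at 10 mM. The labels do not say whether replicates came from separate chemostats or whether gcn4Δ was 1 clone. The spread behind every p-value is thus that of these samples and could be technical. These are bulk cultures, in which fewer expressing cells and less RNA per cell cannot be told apart.

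GCN4 itself read 7248 to 7312 in the wild type and 14.5, 213 and 11.4 in gcn4Δ replicates 1, 2 and 3, so 1 array labelled gcn4Δ was above the background of 17.9 to 25.2. HIS3, whose product 3AT inhibits, fell by 2.27 on the log2 scale (limma, adjusted p = 7.08e-05). Median intensity over S. cerevisiae probe sets was 665 to 712 per array. All 6 MAT a markers, such as STE2 and MFA1, were above background on every array, as were the 3 MAT alpha markers MF(ALPHA)1, MF(ALPHA)2 and STE3. MF(ALPHA)1 read 259 in wild type replicate 3 and 49.9 to 91.1 on the other arrays. None of the 6 MAT a or 3 MAT alpha markers passed the test, the largest values being 0.51 for MFA1 and -0.48 for MF(ALPHA)1 (adjusted p = 0.144 and 0.609), but 2 MAT a markers were called higher without wild type replicate 3 and 1 MAT alpha marker lower without replicate 1. The 6 markers of sporulating diploids were above background on every array too, and 2 of them were called, where 11.3% of all genes were. NDT80 was higher and IME1 lower, by 0.48 and 0.43 on the log2 scale (limma, adjusted p = 0.0243 and 0.0240, up to 0.133 and 0.129 when 1 array was left out). Precision is limited throughout by the number of arrays.

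Few of the sterol genes passed the test between the strains, and most of the differences were small. Of the 32 genes, ERG4 rose, ERG12 fell and 30 did not pass (limma on log2 intensities, adjusted p under 0.05 over all S. cerevisiae probe sets). That is 6.25% of the members, which is not above the 11.3% called among all genes (5.34% higher and 6.0% lower). Unadjusted p-values under 0.05 were found for 8 of the 32 members and for 28.6% of all genes. The median log2 change was 0.08 over the members and 0.04 over all genes, and 19 members had a positive and 13 a negative value. The size of the change was under 0.5 on the log2 scale in 28 of the 32 (87.5%), and in 86.5% of all genes.

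How much change these arrays leave room for can be read from the 95% intervals of the log2 changes. The interval lay wholly within 1, a doubling or halving, for 30 of the 32 members (93.8%) and for all 24 genes of the route from acetyl-CoA to ergosterol, against 88.1% of all genes. ARE2 and HES1 were the 2 members outside. It lay within 0.5 for 18 members (56.2%), close to the 53.5% of all genes. The wild-type and gcn4Δ values did not overlap for 12 members, 7 higher and 5 lower in gcn4Δ. This is 37.5% of the members, and 35.7% of all genes had groups that did not overlap (21.1% higher, 14.6% lower).

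**Figure D1:**
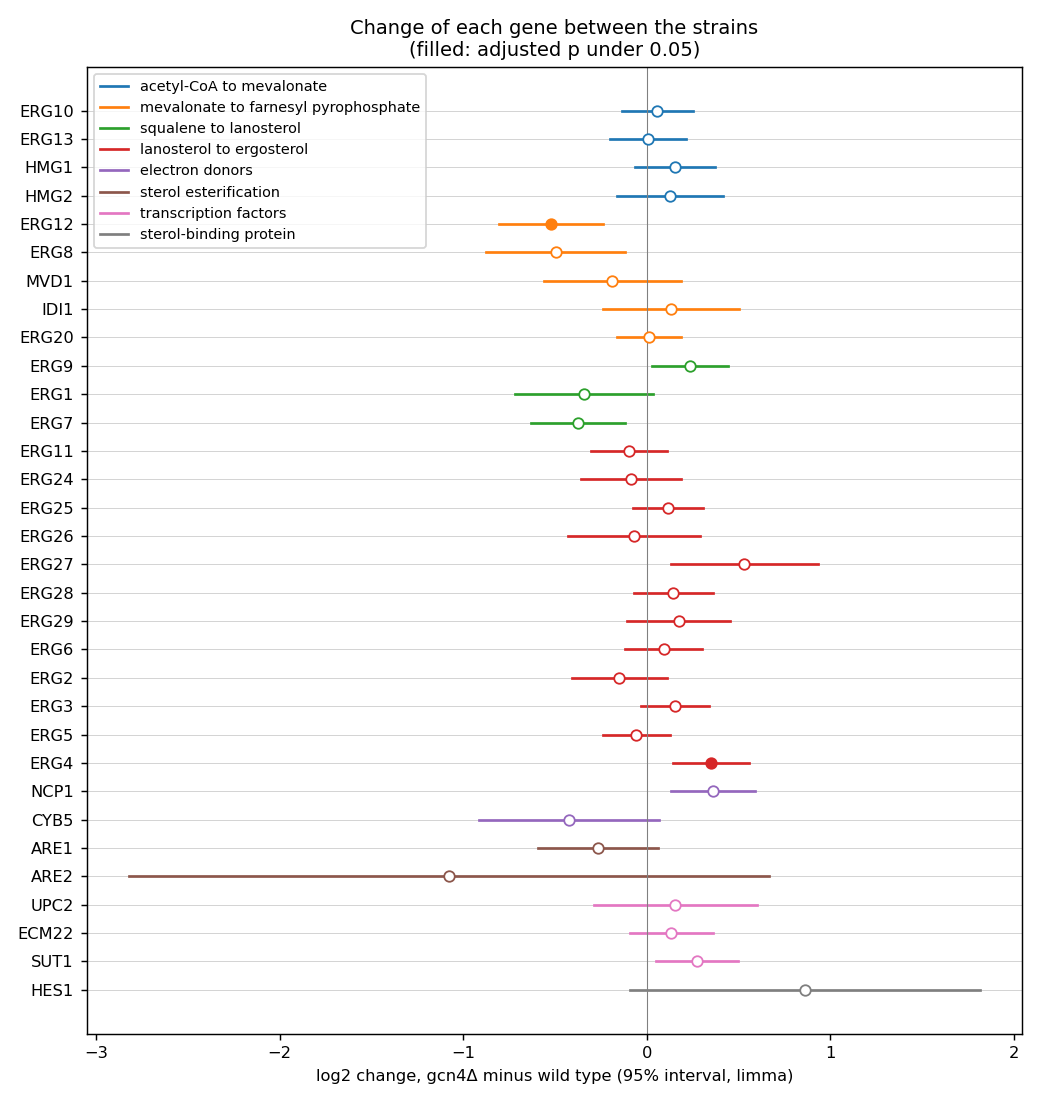
Log2 change of each of the 32 genes, gcn4Δ minus wild type, with its 95% interval from limma (n = 3 arrays each), coloured by role. Filled points passed an adjusted p of 0.05: ERG12 at -0.52 and ERG4 at 0.35. Most intervals cross 0, and that of ARE2 is the widest.

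The first steps of the pathway, from acetyl-CoA to mevalonate, showed 0 of 4 genes called and overlapping groups in all 4. Over all genes 11.3% were called and 35.7% had groups that did not overlap. With 4 genes, such counts do not set the block apart. ERG10, acetoacetyl-CoA thiolase, was at a log2 change of 0.06 (95% interval -0.13 to 0.25), and ERG13, HMG-CoA synthase, at 0.01 (-0.20 to 0.21). HMG-CoA reductase is the main control point of the pathway and is encoded by a pair of paralogs. HMG1 read 1304, 1363 and 1279 in wild type replicates 1, 2 and 3 and 1491, 1336 and 1574 in gcn4Δ replicates 1, 2 and 3. HMG2 read 826, 1019 and 911 in the wild type and 1033, 886 and 1092 in gcn4Δ. In both paralogs gcn4Δ replicate 2 was the lowest gcn4Δ array and fell among the wild-type values. Their log2 changes were 0.15 and 0.13 (adjusted p = 0.313 and 0.518, limma). The log2 ratio of HMG1 to HMG2 moved by 0.03 between the strains (exact permutation test, two-sided, p = 0.8, n = 3 each).

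The middle block, from mevalonate to farnesyl pyrophosphate, held the only member called lower, where 6.0% of all genes were. ERG12 (YMR208W), mevalonate kinase, read 1477, 1200.5 and 1163 in wild type replicates 1, 2 and 3, and 879, 828 and 959 in gcn4Δ. Every gcn4Δ array lay below every wild-type array, and wild type replicate 1 was the highest of all. The means were 1280.2 ± 172 and 889 ± 65.8 (SD, n = 3 each), which on the log2 scale is -0.52 ± 0.12 (SE, adjusted p = 0.0384, limma). ERG8, the phosphomevalonate kinase of the next step, read 2094, 1563 and 1447 in the wild type and 1115, 1127 and 1342 in gcn4Δ. Its groups did not overlap either, but it missed the threshold at -0.50 ± 0.16 (SE, adjusted p = 0.0960, limma). MVD1 (ERG19), the decarboxylase that follows, read 1725, 1177 and 1432 against 1153, 1408 and 1212. The groups of MVD1 overlapped, since wild type replicate 2 was the lowest of its group and gcn4Δ replicate 2 the highest of its own (log2 change -0.19, adjusted p = 0.465). Leaving out wild type replicate 1 gave -0.05 for MVD1 and leaving out replicate 2 gave -0.33.

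The last genes of this block did not share that shape. IDI1, isopentenyl diphosphate isomerase, read 1376, 1990.5 and 1964 in the wild type and 2033, 1891 and 1839.8 in gcn4Δ, so only wild type replicate 1 stood apart, and low. ERG20, farnesyl pyrophosphate synthase, was the steadiest member, at 4862 to 5023 over all 6 arrays (log2 change 0.01, 95% interval -0.16 to 0.19). Averaged over the 5 genes and set against the wild-type mean, the block was at -0.25, -0.22 and -0.17 in gcn4Δ replicates 1, 2 and 3. The wild-type arrays were at 0.09, -0.06 and -0.04 on that log2 scale. No test was made of this average.

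From squalene to lanosterol, 0 of 3 genes were called, where 11.3% of all genes were, and the 3 pointed in different directions. ERG9, squalene synthase, which commits farnesyl pyrophosphate to sterols, read 1637, 1588 and 1495 in the wild type and 1943, 1730.1 and 1897 in gcn4Δ. ERG7, lanosterol synthase, read 1092, 1051 and 984 against 796, 719.8 and 905. ERG9 was higher and ERG7 lower on every gcn4Δ array than on any wild-type array, at log2 changes of 0.24 and -0.37 (adjusted p = 0.132 and 0.0749, limma). ERG1, the oxygen-dependent squalene epoxidase and target of the antifungal terbinafine, read 2911, 2145 and 2744 against 1804.5, 2399 and 1945. Its groups overlapped because wild type replicate 2 was low and gcn4Δ replicate 2 high (log2 change -0.34, adjusted p = 0.209).

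Of the 12 genes from lanosterol to ergosterol, 1 was called higher, where 5.34% of all genes were, and 11 had no call. The median log2 change of the 12 was 0.10. ERG4 (YGL012W) encodes the sterol reductase of the final step. It read 2798, 2766 and 2441 in wild type replicates 1, 2 and 3 and 3407, 3357 and 3417 in gcn4Δ, where the 3 arrays were within a few percent of each other and all above the wild type. The means were 2668 ± 198 and 3394 ± 32.1 (SD, n = 3 each), a 1.27-fold rise, or 0.35 ± 0.09 on the log2 scale (SE, adjusted p = 0.0487, limma). ERG27, the keto reductase of sterol demethylation, had the largest positive value of the block but a wide spread. It read 786, 1187 and 1139.6 in the wild type and 1559.6, 1357 and 1520.4 in gcn4Δ. Groups did not overlap for ERG27, wild type replicate 1 was its lowest array, and it missed the threshold at 0.53 ± 0.17 (SE, adjusted p = 0.0944, limma), or 0.34 without that array.

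**Figure D2:**
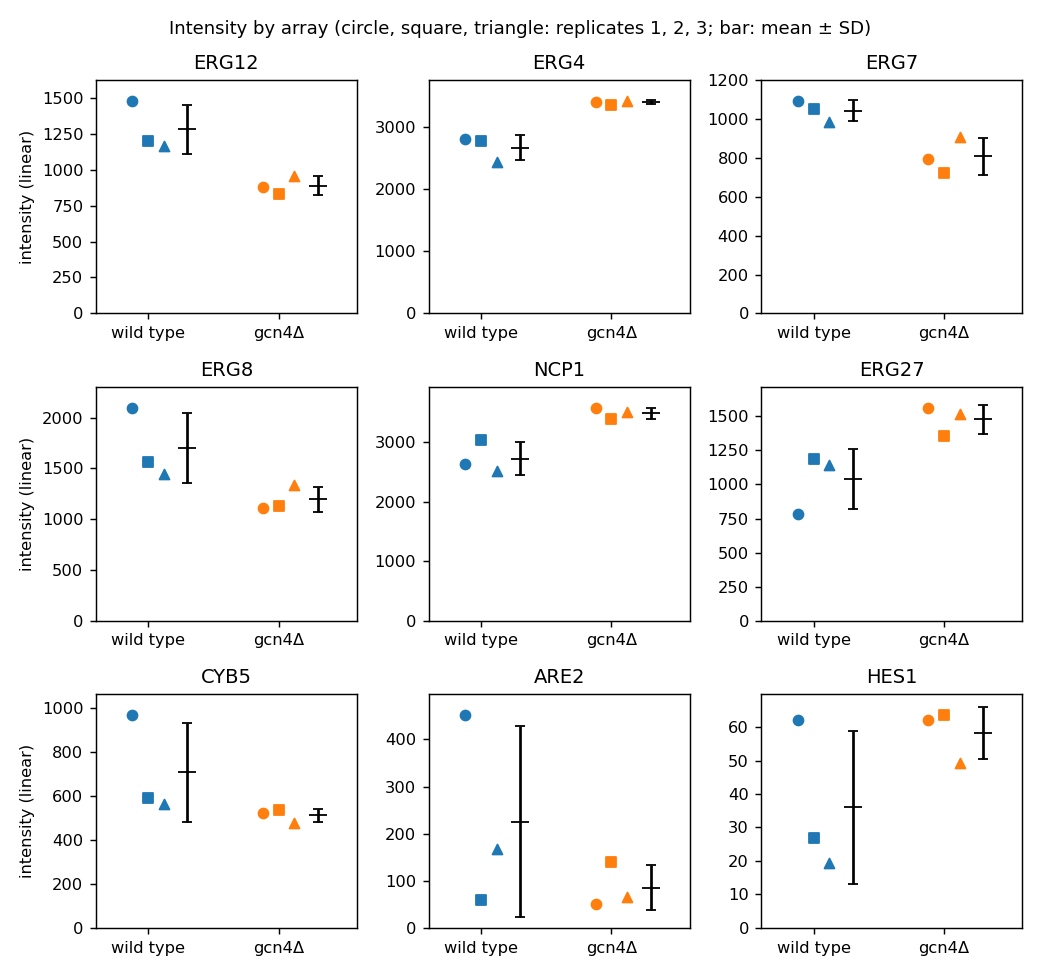
Intensity on a linear scale for 9 members on each array, with replicates 1, 2 and 3 as circle, square and triangle and the mean ± SD as a bar (n = 3 each). ERG12, ERG7 and ERG8 lie lower and ERG4, NCP1 and ERG27 higher on all gcn4Δ arrays, while CYB5, ARE2 and HES1 have 1 wild-type array, replicate 1, far above the other two.

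Genes for the partners of Erg27 in sterol demethylation gave small values, none past the test. ERG25, the methyl sterol oxidase, read 4993, 5298 and 4817 in the wild type and 5618, 5438 and 5301 in gcn4Δ. Its groups separated by only a few units, at a log2 change of 0.12 (adjusted p = 0.386, limma). ERG26, the dehydrogenase between them, was at -0.07, or 0.08 without wild type replicate 1. ERG28, which encodes a membrane protein that tethers these enzymes, was at 0.14 and ERG29 at 0.17, neither past the test (adjusted p = 0.337 and 0.377).

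ERG11, the cytochrome P450 demethylase that azole drugs inhibit, read 3949, 4237 and 3848 in the wild type and 3775, 3522 and 3959.9 in gcn4Δ. The groups overlapped, with a log2 change of -0.10 (95% interval -0.31 to 0.11), so a change of 0.5 in either direction lies outside the interval. ERG24, the reductase that follows it, was at -0.09. ERG6, the methyltransferase that gives fungal sterols their extra methyl group, was at 0.09, and ERG2, the sterol isomerase, at -0.15. The desaturase genes ERG3 and ERG5 were at 0.15 and -0.06. ERG3 was higher on all gcn4Δ arrays, at 3716, 3858 and 3568 against 3362, 3410.1 and 3235, but did not pass (adjusted p = 0.244).

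The genes of the electron donors pointed in opposite directions. NCP1, the reductase that feeds electrons to Erg11 and Erg5, read 2627, 3032 and 2510.1 in the wild type and 3572, 3389.8 and 3504 in gcn4Δ. Its groups did not overlap, and it just missed the threshold at 0.36 ± 0.10 (SE, adjusted p = 0.0609, limma). CYB5, the cytochrome that serves the desaturase and oxidase steps, read 967, 590.1 and 566 against 522, 536 and 479. CYB5 was lower on all gcn4Δ arrays, but most of its difference came with wild type replicate 1: its log2 change was -0.42 (adjusted p = 0.229), or -0.18 without that array.

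Sterol ester formation gave the least settled values. ARE2, the main acyl-CoA:sterol acyltransferase in aerobic cells, read 451, 59.0 and 167 in wild type replicates 1, 2 and 3 and 51.6, 139.9 and 65.6 in gcn4Δ. The wild-type arrays spanned a 7.65-fold range, against 3.20-fold for HES1 as the next widest member, and the groups overlapped. The log2 change of -1.08 had a 95% interval of -2.82 to 0.67 (adjusted p = 0.374), and leaving out wild type replicate 1 gave -0.35, replicate 2 of that strain -1.81. Its paralog ARE1 read 559.6, 397 and 430.1 against 363, 389 and 388, lower on each gcn4Δ array but not past the test (log2 change -0.27, adjusted p = 0.249, or -0.12 without wild type replicate 1). For the log2 ratio of ARE1 to ARE2 the difference between the strains was 0.81 (exact permutation test, two-sided, p = 0.4, n = 3 each). It was 0.23 without wild type replicate 1 and 1.45 without replicate 2.

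None of the regulators passed. UPC2 read 216, 144 and 136 in the wild type and 163, 197 and 181 in gcn4Δ, with wild type replicate 1 above every other array. The log2 change of UPC2 was 0.15 (adjusted p = 0.614), or 0.36 without wild type replicate 1 (adjusted p = 0.0755). Its paralog ECM22 read 534, 577 and 515 against 609, 544 and 633 and overlapped (log2 change 0.13, adjusted p = 0.393). The log2 ratio of UPC2 to ECM22 moved by 0.02 (exact permutation test, two-sided, p = 0.9, n = 3 each), by 0.24 when wild type replicate 1 was left out and by -0.11 when replicate 2 was. Adjusted over the 3 paralog pairs compared, every p was 0.9, and 3 arrays against 3 cannot give a p under 0.1. SUT1, a factor that promotes sterol uptake, read 263, 307 and 287 in the wild type and 361, 324 and 349.9 in gcn4Δ. The groups of SUT1 did not overlap, at a log2 change of 0.27 (adjusted p = 0.116).

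HES1 (OSH5), an oxysterol-binding protein homologue, was one of 2 members, with NCP1, that did not pass with all arrays but did when 1 was left out. It read 62.1, 26.7 and 19.4 in wild type replicates 1, 2 and 3 and 62.0, 63.5 and 49.4 in gcn4Δ. Wild type replicates 2 and 3 were close to the background of 20.9 and 17.9 on those arrays, and replicate 1 was level with gcn4Δ. With all arrays the log2 change was 0.86 (adjusted p = 0.211), and without wild type replicate 1 it was 1.35 (adjusted p = 0.0064, limma). In that fit ERG12 and ERG4 also passed, making 3 of 32 members (9.38%), against 13.1% of all genes.

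**Figure D3:**
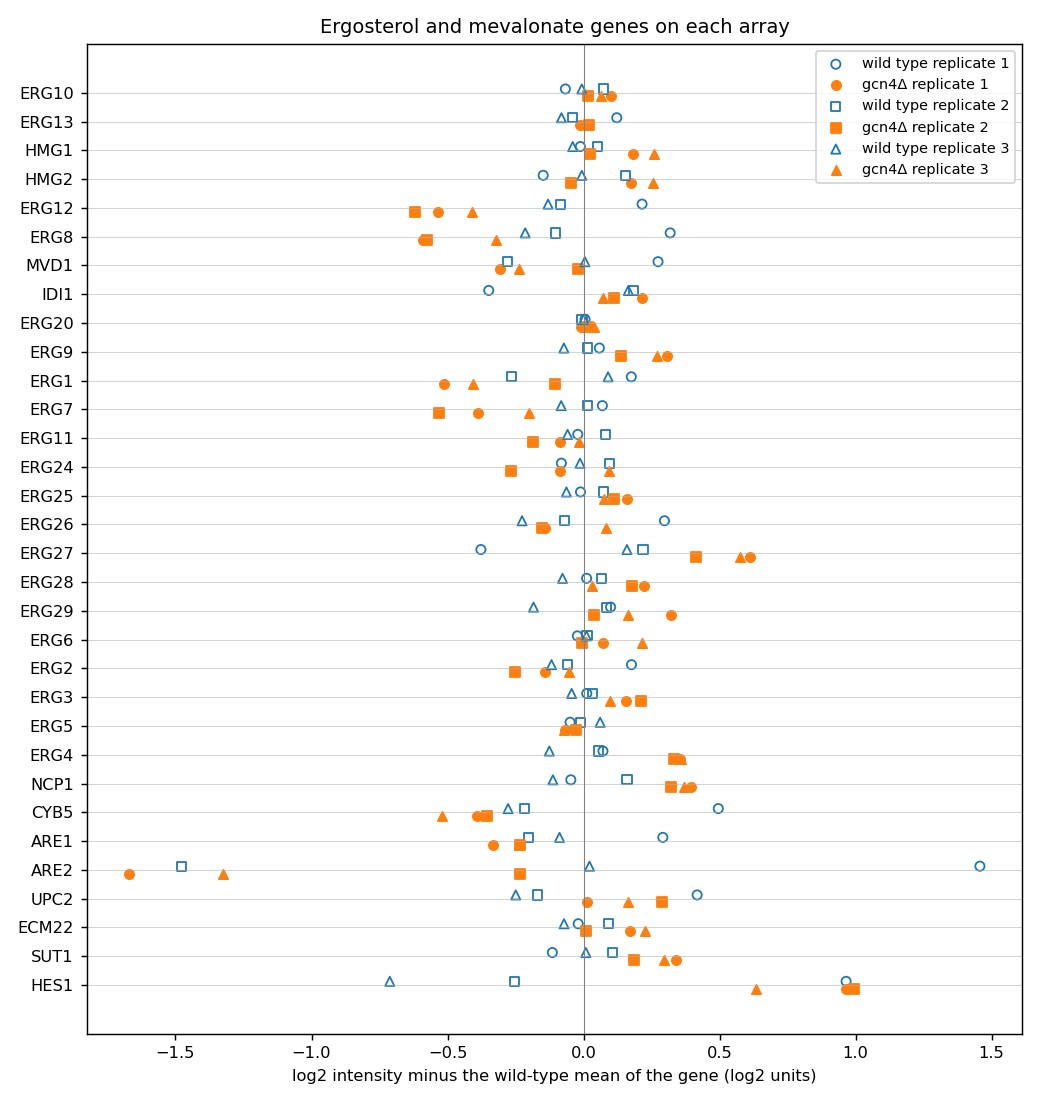
Log2 intensity of each gene on each array minus its wild-type mean, with open blue symbols for the wild type and filled orange ones for gcn4Δ. Wild type replicate 1 (open circle) lies away from both other wild-type arrays for CYB5, UPC2, HES1, ERG27 and IDI1, and the 3 gcn4Δ arrays lie close together for most genes.

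Spread within the strains was small for most members. The highest array was within 1.2-fold of the lowest for 16 of 32 members in the wild type and 22 of 32 in gcn4Δ, and the median ratio was 1.19 and 1.15 (1.22 and 1.15 over all genes). Wild type replicate 1 was the highest wild-type array for 17 members and the lowest for 8. Replicate 2 was the highest for 14 and the lowest for 5, and replicate 3 the highest for 1 and the lowest for 19. Wild type replicate 1 differed from the mean of the other two by over 0.5 on the log2 scale for 6 members, ARE2, HES1, CYB5, UPC2, ERG27 and IDI1. This was so for 1 member each in wild type replicate 2 (ARE2) and replicate 3 (HES1). The median size of this deviation over the members was 0.16, 0.13 and 0.12 in wild type replicates 1, 2 and 3. Over all genes it was 0.19, 0.13 and 0.14, so replicate 1 stood apart there too.

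Both calls rested on narrow margins. ERG12 and ERG4 stayed past the threshold only when wild type replicate 1 was the array left out (adjusted p = 0.0392 and 0.0407). Leaving out any other array gave an adjusted p of up to 0.151 for ERG12 and up to 0.204 for ERG4. Their log2 changes stayed within -0.59 to -0.41 and 0.29 to 0.39 over the 6 omissions. NCP1 passed when wild type replicate 2 was left out, at 0.44 (adjusted p = 0.0424). Over these omissions 28 members kept the sign of their change. ERG13, ERG24, ERG26 and IDI1 did not, at log2 changes of 0.01, -0.09, -0.07 and 0.13 with all arrays.

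Genes that handle sterols outside the synthetic route had 0 or 1 call per list, where 11.3% of all genes were called. Among 17 sterol transfer genes 1 rose and 0 fell: SWH1 (OSH1), an oxysterol-binding protein homologue like HES1, went from 441, 569 and 533 to 822, 725 and 795, with groups well apart. Its log2 change was 0.61 (adjusted p = 0.0219, limma), and the call was lost without wild type replicate 3 or any one gcn4Δ array (adjusted p up to 0.111). Of 6 sterol uptake and export genes 1 fell, AUS1, a sterol importer of the ABC family. AUS1 went from 501, 475 and 511 to 289, 296 and 362, a log2 change of -0.66 that was below every wild-type array (adjusted p = 0.0129, and up to 0.0728 without gcn4Δ replicate 1 or 2). The other importer gene, PDR11, was at 0.08 and did not pass. Sterol ester hydrolysis and sterol acetylation had 0 of 5 called, with the largest value at ATF2, the sterol acetyltransferase gene (-0.29, adjusted p = 0.680). ATF2 read 333 in wild type replicate 1 and 109 to 157 on the other 5 arrays, and its log2 change was 0.24 without that array.

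The control genes of HMG-CoA reductase turnover and of P450 enzymes had 1 of 11 lower, where 6.0% of all genes were. The gene called was DER1, a membrane protein of endoplasmic reticulum-associated degradation, at -0.43 (adjusted p = 0.0434, and up to 0.169 when 1 array was left out). Genes listed for other uses of isoprenoid pyrophosphates, such as farnesyl pyrophosphate, had 1 of 14 higher, where 5.34% of all genes were. SRT1, a cis-prenyltransferase of dolichol synthesis, went from 21.3, 29.4 and 27.8 to 81.0, 79.6 and 49.2, a log2 change of 1.40 (adjusted p = 0.0113). Its wild-type values were near background, and without gcn4Δ replicate 2 it did not pass (adjusted p = 0.0528).

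**Figure D4:**
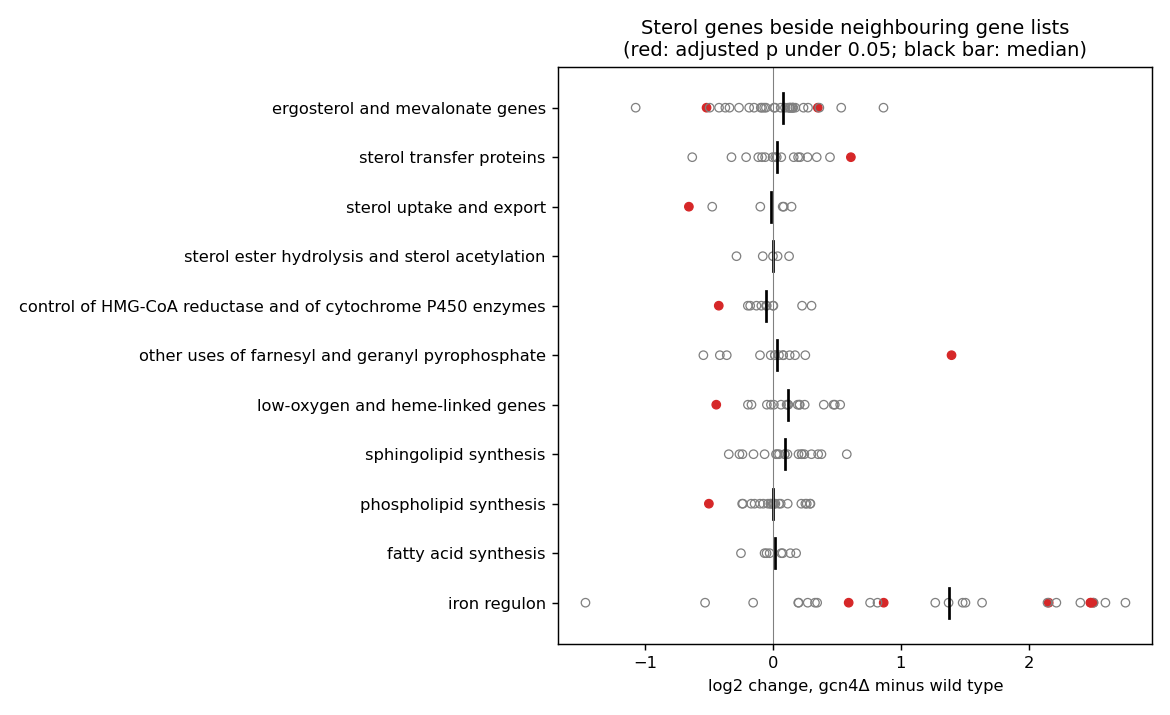
Log2 change, gcn4Δ minus wild type, of each gene in the ergosterol and mevalonate group and in 10 other lists, with red points past an adjusted p of 0.05 and a black bar at each list's median. The sterol, low-oxygen and other lipid lists have medians between -0.06 and 0.12, and the iron regulon a median of 1.37.

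Low-oxygen and heme-linked genes, several of which share regulators with the sterol genes, had 1 of 18 lower, where 6.0% of all genes were. The median log2 change of the 18 was 0.12. The gene called was CYC7, an isoform of cytochrome c, at -0.45 (adjusted p = 0.0229, and up to 0.133 when 1 array was left out). Without wild type replicate 1 the list had 4 genes higher and 1 lower, in a fit that called 13.1% of all genes. In other lipid routes 0 of 19 sphingolipid genes, 0 of 8 fatty acid genes and 1 of 22 phospholipid genes were called, where 11.3% of all genes were. The last was PCT1, of phosphatidylcholine synthesis, at -0.50 (adjusted p = 0.0240, and up to 0.111 when 1 array was left out). Among fatty acid genes the largest value was that of ACS2, which makes acetyl-CoA, the starting point of the sterol route (-0.25, adjusted p = 0.0799). SUR1, of mannosylated sphingolipids, was at 0.58 (adjusted p = 0.0774) and passed only without wild type replicate 3.

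Iron genes were set beside the sterol genes because Erg3 and Erg25 carry iron and Erg11, Erg5 and Cyb5 carry heme. In the iron regulon 6 of 27 genes rose, where 5.34% of all genes did, 0 fell and the median log2 change was 1.37, with HMX1, heme oxygenase, at 2.49 and FRE2, a ferric reductase, at 2.51. Its wild-type arrays were far apart, and the median iron gene deviated from the other two by -1.14 (replicate 1), 0.98 (replicate 2) and 0.05 (replicate 3). Without wild type replicate 1 the iron genes had 10 calls and a median of 0.73 (13.1% of all genes called), and without replicate 2 they had 17 and a median of 1.78 (10.1% of all genes called). With any other array left out 3 were higher, and 1 was lower without wild type replicate 3 (4.04% to 7.05% of all genes called). On the same measure ERG11, ERG5, ERG25 and ERG3 deviated by -0.03, -0.07, -0.02 and 0.02 in wild type replicate 1, and CYB5 by 0.74. In wild type replicate 2 these genes were at 0.12, -0.02, 0.11 and 0.05, and CYB5 at -0.33. In replicate 3 they were at -0.09, 0.09, -0.09 and -0.07, and CYB5 at -0.42. None of these 5 sterol genes passed the test, and whether iron supply had a part in any sterol value was not tested.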

How the data were processed

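Each array has 1 deposited intensity per probe set, on a linear scale, which the authors obtained by RMA, per the submitters' processing notes. The sources used here do not give its version or the array build. Whether the 6 arrays went through 1 run is not stated either. RMA sets the arrays of a run to one distribution and so evens out changes that move most genes together. Array medians were 665 to 712, and no further scaling was applied. All 6 sample columns were used, and 0 belonged to other samples.

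Of 10928 probe sets, 5498 matched S. cerevisiae genes (5449 in all) by gene identifier in the R64 RefSeq gene table. Where a gene had several, the brightest by mean was taken. Log2 intensities were fitted with limma (version 3.58.1, R 4.3.3) as gcn4Δ minus wild type without covariates, by lmFit and eBayes. P-values were adjusted by Benjamini-Hochberg over all 5498, and 0.05 was the threshold. Means ± SD are of linear intensities. Log2 ratios of paralogs were compared by an exact permutation test. The fit was tested on simulated data with independent noise per probe set. It recovered 35.8% of log2 changes of 0.5, 86.6% of those of 1 and 95.5% of those of 2. Of 149 calls, 4 were false. The lack of a call alone thus leaves room for a change of 0.5. The room for each gene is given by its 95% interval, which lay within 0.5 for 18 of the 32 members.

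Every member is described. From each other list up to 2 called genes per direction were named, or the 1 furthest from 0 if none was called; PDR11 was named after its value was seen, and STE2, MF(ALPHA)2 and STE3 as markers. Members and lists were chosen with earlier results of these data known. Alternatives covered the normalization, dim probe sets, the variance model, array weights, the threshold, averaging probe sets, a pseudocount of 16, a replicate block and leaving out each array. Promoter and protein sequences were not used here. Plots were made in Python 3.11.15 (matplotlib 3.10.9).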

Additional observations from a re-analysis of the deposited data

How the results depend on the processing

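The count of ergosterol and mevalonate genes called was 2 (1 higher, 1 lower), of 618 genes in all. It was 3 with quantile normalization again and with trend and robust variances, and 3 of 28 tested without the lowest 25% of probe sets, which drops ARE2, HES1, SUT1 and UPC2 (2 higher each, NCP1 added), and 3 with median centring (2 lower, ERG7 added). It was 2 with the background filter, probe sets averaged per gene and a pseudocount of 16. Array weights gave 9 (6 higher, 3 lower), with 1443 of all genes called (26.5%); their estimation stopped before it converged. A threshold of 0.01 left 0 of the members and 224 of all genes, and a 2-fold minimum left 0 and 174; both are stricter by construction, and 8 members had an unadjusted p under 0.05. Leaving out 1 array gave 0 to 3 members called (0 to 2 higher, 0 to 1 lower) and 220 to 713 of all genes, and the median log2 change of the members stayed between 0.04 and 0.09. The count was 3 without wild type replicate 1, 1 without wild type replicate 2 and 0 without any one of the other arrays. Each of these fits had 1 array fewer, and the cause of the differences between them was not tested. With the replicate number as a block, 0 members (0 higher, 0 lower) and 210 of all genes were called, ERG12 at an adjusted p of 0.119 and ERG4 at 0.176. Same-numbered arrays had correlations of deviations from the strain mean of -0.336, -0.383 and -0.221, and differently numbered ones of -0.121 to 0.555. With 3 arrays per strain the deviations within a strain depend on each other. These values therefore cannot decide whether the numbers pair the samples. No member changed direction while called under any of these settings. The number of arrays and, for HES1, a signal near background limit what can be seen.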
